A study of Mus musculus with 12 samples.

Results

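All 6 reporter-positive libraries of the study were compared with its 6 reporter-negative libraries, so that the 12 of 12 libraries entered 1 comparison with the cell sort kept as a block. The material was RNA from hypothalamic cells of C57BL/6 mouse embryos at embryonic day 18, grown as neurospheres, which are floating aggregates of dividing neural cells and their progeny. One virus was added before plating at a multiplicity of infection of 10, an AAV where cells expressing Hcrt were to be sorted and a lentivirus where cells expressing Pmch were to be sorted. The medium was supplemented 24 h later with 10 ng/ml bFGF, a mitogen of neural progenitors, and sorting followed after 1 week. The AAV cultures gave 3 mCherry-positive and 3 mCherry-negative libraries, and the lentivirus cultures gave 3 EGFP-positive and 3 EGFP-negative libraries. The labels tie mCherry to Hcrt and EGFP to Pmch only through the names of the deposited tables. Every group shared the strain, age, medium and growth factor. Library preparation began with 0.8 ng of total RNA in the mCherry sort and 2 ng in the EGFP sort, so that virus, fluorophore, RNA input and sort cannot be told apart, and only positive against negative cells of the same sort were compared. No promoter of either reporter is named in the sources used here. The labels number the replicates but do not say whether they were separate cultures, so p-values measure the spread between these libraries, which may be technical.

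Hcrt encodes the precursor of the hypocretins (orexins) and Pmch that of melanin-concentrating hormone, 2 peptides made by separate neurons of the lateral hypothalamus that take part in the control of wakefulness, sleep and feeding. Neurospheres from the embryonic hypothalamus hold radial glia-like stem cells together with the precursors of neurons, astrocytes and oligodendrocytes. Tanycytes and ependymal cells, the glia that line the third ventricle, descend from the same radial glia, and ependymal cells carry motile cilia. Proneural factors and Notch ligands such as Dll1 and Dll3 mark progenitors that are committing to a neuronal fate, and Dlx factors specify GABAergic neurons.

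The libraries held 16291110 to 32889829 reads counted in genes. Mitochondrial transcripts made up 1.06% to 1.54% of gene reads in the mCherry-positive, 0.805% to 0.953% in the mCherry-negative, 0.766% to 0.872% in the EGFP-positive and 1.16% to 1.36% in the EGFP-negative libraries, so they moved in opposite directions in the 2 sorts. Libraries also stood apart by markers of other cells. Levels are given as counts scaled to library size with TMM factors (CPM), a scale that does not correct for gene length. The summed level of 20 microglia and macrophage genes was 2083 CPM in mCherry-positive replicate 1 and 69.6 to 580.0 CPM in the other libraries. The summed level of 16 pituitary genes was 2279 and 5147 CPM in mCherry-positive replicates 2 and 3 and 7.49 to 462.9 CPM elsewhere. Pomc, the precursor of corticotropin and melanocortins, reached 2054 and 3935 CPM in those 2 libraries and 3.95 CPM in mCherry-positive replicate 1. Tshb, the thyrotropin beta chain, stood at 0.123, 69.2 and 623 CPM in the 3. The part these transcripts have in the results was not tested. Results are also given without those libraries for many lists but not for all, and counts given without that check may move.

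The bulk libraries of sorted cells held both neuronal and glial transcripts, which does not show whether single cells held both. The summed level of 22 pan-neuronal genes was 2300.0 to 4826 CPM over the 12 libraries, and that of 22 astrocyte genes was 13020.0 to 40360.0 CPM. Of 34 listed hypothalamic patterning factors 28 were expressed enough to be tested, and the list summed to 455.8 to 782.8 CPM over the 12 libraries. Sim1 and Otp, factors of the lateral and paraventricular regions chosen here after their values were seen, were at or near 0. Sim1 stood at 0 to 0.921 CPM and Otp at 0 to 1.57 CPM.

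Hcrt was close to the limit of detection in all 12 libraries. It stood at 0.164, 0.0924 and 0.394 CPM in the mCherry-positive libraries, 0.0321, 0.154 and 0.227 CPM in the mCherry-negative, 0.186, 0.0398 and 0 CPM in the EGFP-positive and 0.159, 0.0761 and 0.0602 CPM in the EGFP-negative. The mCherry-positive libraries held 21 Hcrt reads in all against 11 in the mCherry-negative, a ratio of 1.82 per gene read with a 95% interval of 0.837 to 4.17 that covers counting error only. The EGFP-positive libraries held 4 reads against 7 in the EGFP-negative, a ratio of 0.510 (0.109 to 2.01). Hcrt was too low for the test across all genes, and its mean level did not separate positive from negative cells (2-sided exact permutation test within sorts, p = 0.685, where 400 regroupings allow no p below 0.005). The level of the gene that the AAV reporter was meant to report therefore gives no check on the mCherry labels.

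Pmch was higher in the EGFP-positive cells. It stood at 0.123, 0.216 and 0.394 CPM in the mCherry-positive libraries, 0.257, 0.184 and 0 CPM in the mCherry-negative, 17.3, 19.1 and 18.9 CPM in the EGFP-positive and 3.93, 5.02 and 4.81 CPM in the EGFP-negative. The EGFP libraries did not overlap, with 1296 Pmch reads against 311, a ratio of 3.72 per gene read (95% counting interval 3.28 to 4.22). The mCherry libraries overlapped, with 24 reads against 14, a ratio of 1.63 (0.810 to 3.41). Over both sorts the mean difference had p = 0.025 in the 2-sided exact permutation test within sorts, while EGFP alone gave 0.1, the smallest p that 3 against 3 allows, and mCherry alone gave 0.5. In edgeR's quasi-likelihood test across all genes Pmch had a shared log2 fold change of 1.57 ± 0.40 (SE) and a Benjamini-Hochberg adjusted p of 0.0208, a call that was lost when any 1 of 5 EGFP libraries was left out (adjusted p up to 0.0701). Pmch lies within the span of another gene, Parpbp, and reads of the pair cannot be told apart if counting ignored strand, which the sources used here do not give.

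The first question was which genes differed between positive and negative cells whichever virus and fluorophore was used. Of 17395 genes tested, 1305 (7.50%) were higher and 745 (4.28%) were lower in reporter-positive cells at an adjusted p under 0.05, 2050 genes or 11.8% in all. Group means differed in the same direction in both sorts for 1305 of the 1305 higher genes and for 744 of the 745 lower ones, which fitting 1 effect for both sorts favours. The median log2 fold change was 0.85 among the higher genes and -0.66 among the lower ones, against -0.0094 over all genes tested. Over 2-fold differences were reached by 490 of the higher and 112 of the lower genes. Protein-coding genes made up 1269 of the higher and 705 of the lower ones.

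The libraries themselves were apart, with every positive library above every negative one in each sort, for 809 of the 1305 higher genes, and the reverse held for 421 of the 745 lower genes. Over all tested genes the same was true of 916 (5.27%) upward and 583 (3.35%) downward. A further 353 higher and 181 lower genes were apart in the EGFP sort only, and 127 higher and 142 lower genes in the mCherry sort only. Replicates of the mCherry sort varied more, with a common coefficient of variation between replicates of 0.382 against 0.189 in the EGFP sort. Fitted alone, the mCherry sort gave 208 called genes (1.20% of 17369, with 0.541% higher and 0.656% lower) and the EGFP sort 2622 (16.1% of 16326, with 8.99% higher and 7.07% lower). The number of shared calls rested on single libraries. The higher count fell to 857, 808, 850 and 857 without EGFP-positive replicate 2 and EGFP-negative replicates 1, 2 and 3 in turn. The lower count fell to 420, 397, 457, 411 and 443 without mCherry-positive replicate 1, EGFP-positive replicates 2 and 3, and EGFP-negative replicates 1 and 2 in turn. Without mCherry-positive replicates 2 and 3 together there were 1318 higher and 711 lower genes.

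**Figure D1:**
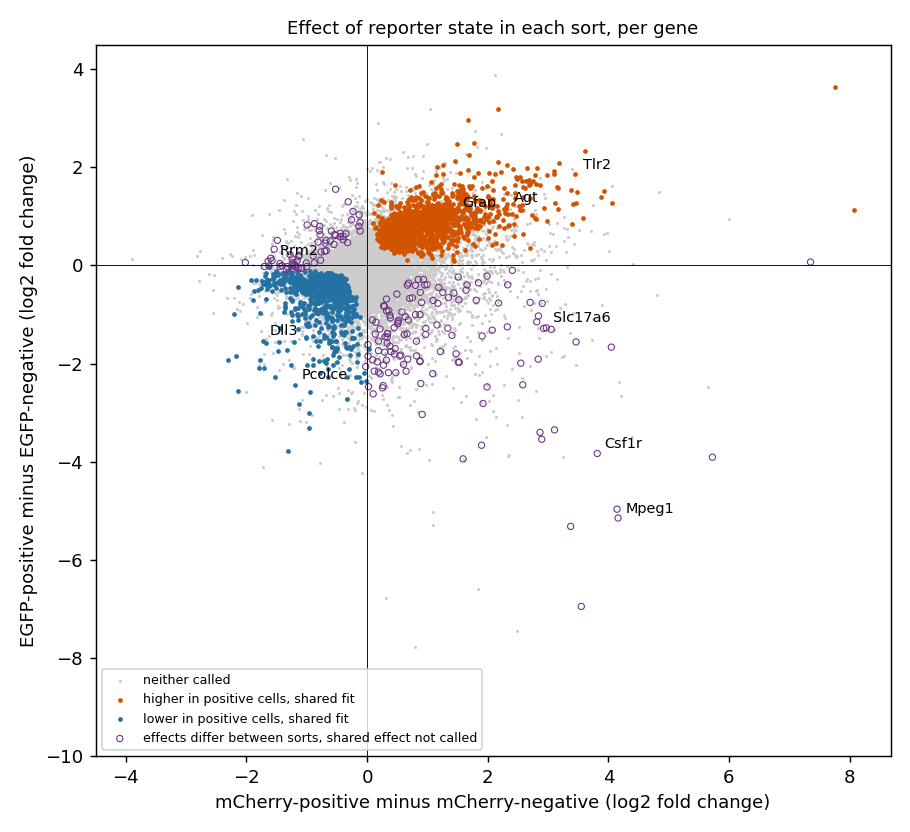
Each point is 1 gene tested in both sorts, with the log2 fold change of positive over negative cells fitted in the mCherry sort alone on the x axis and in the EGFP sort alone on the y axis. Of the genes with a shared call, 1288 of 1305 higher ones (orange) lie in the upper right and 741 of 745 lower ones (blue) in the lower left, and rings mark genes whose effects differed between sorts without a shared call.

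The genes with the largest shared increases included receptors, transporters and a polarity protein. Of the 668 higher genes that had at least 5 CPM on average and libraries apart in each sort, the 12 largest were Tlr2, Cd109, Sv2b, Gpr50, Fam129a, Crb1, Cckbr, Aspg, Slc43a3, Atp13a4, Slc14a1 and Zfp185, with shared log2 fold changes of 1.96 to 2.68. Cckbr, the brain receptor for cholecystokinin, was at 18.3, 7.64 and 12.1 CPM in the mCherry-positive libraries, 2.25, 2.27 and 2.63 CPM in the mCherry-negative, 17.9, 18.6 and 15.7 CPM in the EGFP-positive and 5.52, 4.56 and 3.01 CPM in the EGFP-negative. Each sort showed it clearly, with a shared log2 fold change of 2.20 ± 0.23 (SE, adjusted p = 0.000267), a 4.58-fold difference. Slc14a1, which encodes a urea transporter found on astrocytes, stood at 97.0, 31.1 and 84.3 CPM in the mCherry-positive libraries, 12.3, 18.1 and 8.18 CPM in the mCherry-negative, 67.9, 89.95 and 98.5 CPM in the EGFP-positive and 25.8, 27.4 and 28.8 CPM in the EGFP-negative. Its lowest positive library, mCherry-positive replicate 2, was still above the highest negative one, and the shared log2 fold change was 2.05 ± 0.27 (adjusted p = 0.000878).

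Tlr2, a receptor for bacterial lipoproteins, had the largest fold change of the 12 (2.68 ± 0.50, adjusted p = 0.00488). Its levels were 96.5, 9.43 and 25.3 CPM in the mCherry-positive libraries, 3.31, 6.36 and 2.23 CPM in the mCherry-negative, 10.2, 12.8 and 13.6 CPM in the EGFP-positive and 3.10, 3.27 and 3.67 CPM in the EGFP-negative. The highest value was in mCherry-positive replicate 1, the library with the highest microglial sum, and the part of microglial transcripts in the result was not tested. Crb1, an apical polarity protein of neuroepithelium and retina, had a shared log2 fold change of 2.32 ± 0.36 (adjusted p = 0.0018), and Atp13a4, a transport ATPase, one of 2.12 ± 0.28 (adjusted p = 0.000747). Cd109, a membrane-anchored binding partner of TGF-beta receptors, had one of 2.63 ± 0.46 (adjusted p = 0.00377). Sv2b, a synaptic vesicle glycoprotein, had one of 2.38 ± 0.59 and lost its call without mCherry-positive replicates 2 and 3 (adjusted p = 0.0883). Slc43a3, a nucleobase transporter, lost its call without EGFP-negative replicate 1 (adjusted p = 0.0535).

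The decreases were smaller. Among 386 lower genes that met the same conditions the 12 largest were Pcolce, Dll3, Tmem255b, Dmrtb1, Igfbpl1, Cyp4b1, Plppr1, Hist1h2ae, Plpp4, Htr3a, Helt and Lrr1, with shared log2 fold changes of -1.80 to -1.17. Dll3, a divergent Notch ligand of differentiating neural progenitors, was at 41.0, 62.4 and 59.2 CPM in the mCherry-positive libraries, 145, 149 and 249 CPM in the mCherry-negative, 44.6, 18.96 and 15.2 CPM in the EGFP-positive and 66.0, 86.1 and 70.7 CPM in the EGFP-negative. Positive and negative libraries were apart in each sort, and the shared log2 fold change was -1.62 ± 0.24 (SE, adjusted p = 0.00138). Plpp4, a lipid phosphate phosphatase, stood at 10.1 ± 1.02 CPM in the mCherry-positive libraries against 22.4 ± 3.78 CPM in the mCherry-negative, and 12.7 ± 2.36 CPM in the EGFP-positive against 30.7 ± 4.46 CPM in the EGFP-negative (SD, n = 3 each). Its shared log2 fold change was -1.21 ± 0.15 (adjusted p = 0.00051). Htr3a, the serotonin-gated ion channel of a class of interneurons, was 2.28-fold lower (-1.19 ± 0.19, adjusted p = 0.00187), and Helt, a factor of GABAergic progenitors in the midbrain and diencephalon, was 2.27-fold lower (-1.18 ± 0.29, adjusted p = 0.0178). Without mCherry-positive replicates 2 and 3, Helt (adjusted p = 0.0747) and the histone gene Hist1h2ae (adjusted p = 0.0508) lost their calls.

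**Figure D2:**
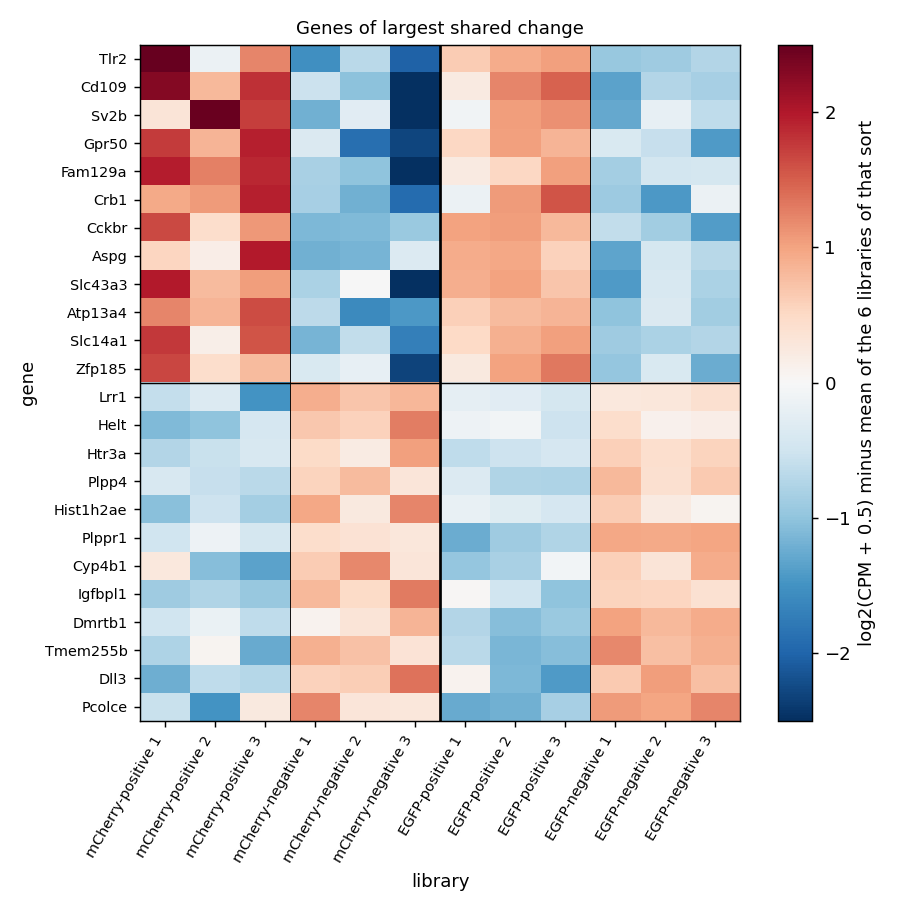
Rows are the 12 higher and 12 lower genes of largest shared fold change and columns are the 12 libraries. Colour gives the log2 level relative to the mean of that sort's libraries, with colours saturated at ±2.5. In each row the positive libraries of a sort lie all above or all below its negative ones, though not always across that mean.

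Astrocyte genes were higher in reporter-positive cells. Of 22 tested members 16 were higher and none was lower, where 7.50% of all genes tested were higher and 4.28% lower. The median log2 fold change was 0.62 against -0.0094 over all genes. Libraries were apart in each sort for 11 of the 22, against 5.27% of all genes upward. Gfap, the intermediate filament of astrocytes and of adult neural stem cells, was at 3501, 2345 and 3186 CPM in the mCherry-positive libraries, 1304, 1026 and 983 CPM in the mCherry-negative, 6777, 7117 and 7046 CPM in the EGFP-positive and 3330.4, 3233 and 3231 CPM in the EGFP-negative. Every positive library lay above every negative library of its sort. Its shared log2 fold change was 1.27 ± 0.12 (SE, adjusted p = 0.000225), 1.45 in the mCherry sort and 1.08 in the EGFP sort fitted alone. Agt, the angiotensin precursor that astrocytes secrete, stood at 577, 307 and 438 CPM in the mCherry-positive libraries, 84.3, 106 and 78.4 CPM in the mCherry-negative, 594, 552 and 536 CPM in the EGFP-positive and 254, 252 and 225 CPM in the EGFP-negative, apart in each sort, with 1.75 ± 0.21 (adjusted p = 0.000465). The apolipoproteins carried by astrocytes followed, with Apoe at 7917 ± 663 CPM in the mCherry-positive libraries against 4522 ± 596 CPM in the mCherry-negative, and 11433 ± 2349 CPM in the EGFP-positive against 6157 ± 663 CPM in the EGFP-negative (SD, n = 3 each) and a shared log2 fold change of 0.85 ± 0.11 (adjusted p = 0.000896). Clu, which encodes clusterin, had 0.97 ± 0.15 (adjusted p = 0.00151). The count of 16 lay between 12 and 18 over all alternatives run. In bulk libraries such as these, a different share of cells of a type and a different amount of RNA per cell cannot be told apart.

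Some genes of tanycytes and of motile cilia were also higher. Of 12 tanycyte genes 6 were higher, none was lower and 6 were not called, where 7.50% of all genes tested were higher. The median was 1.16, and 5 had libraries apart in each sort, against 5.27% of all genes upward. Crym, a thyroid hormone-binding protein of the ventricular lining, was at 128, 100.1 and 89.9 CPM in the mCherry-positive libraries, 34.8, 34.1 and 36.2 CPM in the mCherry-negative, 148, 146 and 128 CPM in the EGFP-positive and 73.4, 70.6 and 72.0 CPM in the EGFP-negative, which left no overlap in either sort (1.28 ± 0.14, adjusted p = 0.000267). Gpr50, an orphan relative of the melatonin receptors that marks tanycytes, had a shared log2 fold change of 2.37 ± 0.43 (adjusted p = 0.0044). Frzb, a secreted Wnt antagonist, had 1.89 ± 0.31 (adjusted p = 0.00248) and rose more in the mCherry sort (2.79) than in the EGFP sort (0.97), a difference of 1.79 ± 0.36, adjusted p = 0.0304.

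Of 16 motile cilia genes 9 were higher, none was lower and 7 were not called (7.50% of all genes were higher), with a median of 1.03 that was close to equal in the mCherry sort (1.02) and the EGFP sort (1.00). Foxj1, the transcription factor that starts the motile cilia programme, was at 32.4, 29.1 and 28.6 CPM in the mCherry-positive libraries, 21.7, 16.8 and 16.6 CPM in the mCherry-negative, 54.0, 54.7 and 47.6 CPM in the EGFP-positive and 29.3, 28.1 and 25.6 CPM in the EGFP-negative. The positive libraries were above the negative ones in each sort, and the shared log2 fold change was 0.81 ± 0.12 (adjusted p = 0.00132). Ccdc39, which sets the spacing of the ciliary axoneme, had 1.45 ± 0.21 (adjusted p = 0.00128), Cfap126 had 1.24 ± 0.22 (adjusted p = 0.00359) and Cfap65 had 1.82 ± 0.33 (adjusted p = 0.00448). The count of 9 lay between 7 and 11 over the alternatives.

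Of 19 radial glia and stem cell genes 6 were higher, 1 was lower and 12 were not called, with a median of 0.28, where 7.50% of all genes were higher and 4.28% lower. The lower one was Nes (nestin, an intermediate filament of neural progenitors), named after its values were seen, at -0.50 ± 0.15 (adjusted p = 0.0458). No member was called lower without mCherry-positive replicate 1 or without mCherry-positive replicates 2 and 3, and the higher count lay between 4 and 7 over the alternatives run. Tnc, a matrix protein of radial glia and reactive astrocytes, stood at 138, 65.5 and 188 CPM in the mCherry-positive libraries, 56.5, 39.1 and 44.0 CPM in the mCherry-negative, 208, 386 and 542 CPM in the EGFP-positive and 119, 136 and 136 CPM in the EGFP-negative. Its positive libraries lay above its negative ones in each sort (1.51 ± 0.24, adjusted p = 0.002). Prom1 (CD133, a membrane protein of stem cell protrusions) had 1.00 ± 0.19 (adjusted p = 0.00542), Hopx (a homeodomain cofactor of outer radial glia) had 0.96 ± 0.21 (adjusted p = 0.0099) and Vim (vimentin) had 0.49 ± 0.12 (adjusted p = 0.0147).

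**Figure D3:**
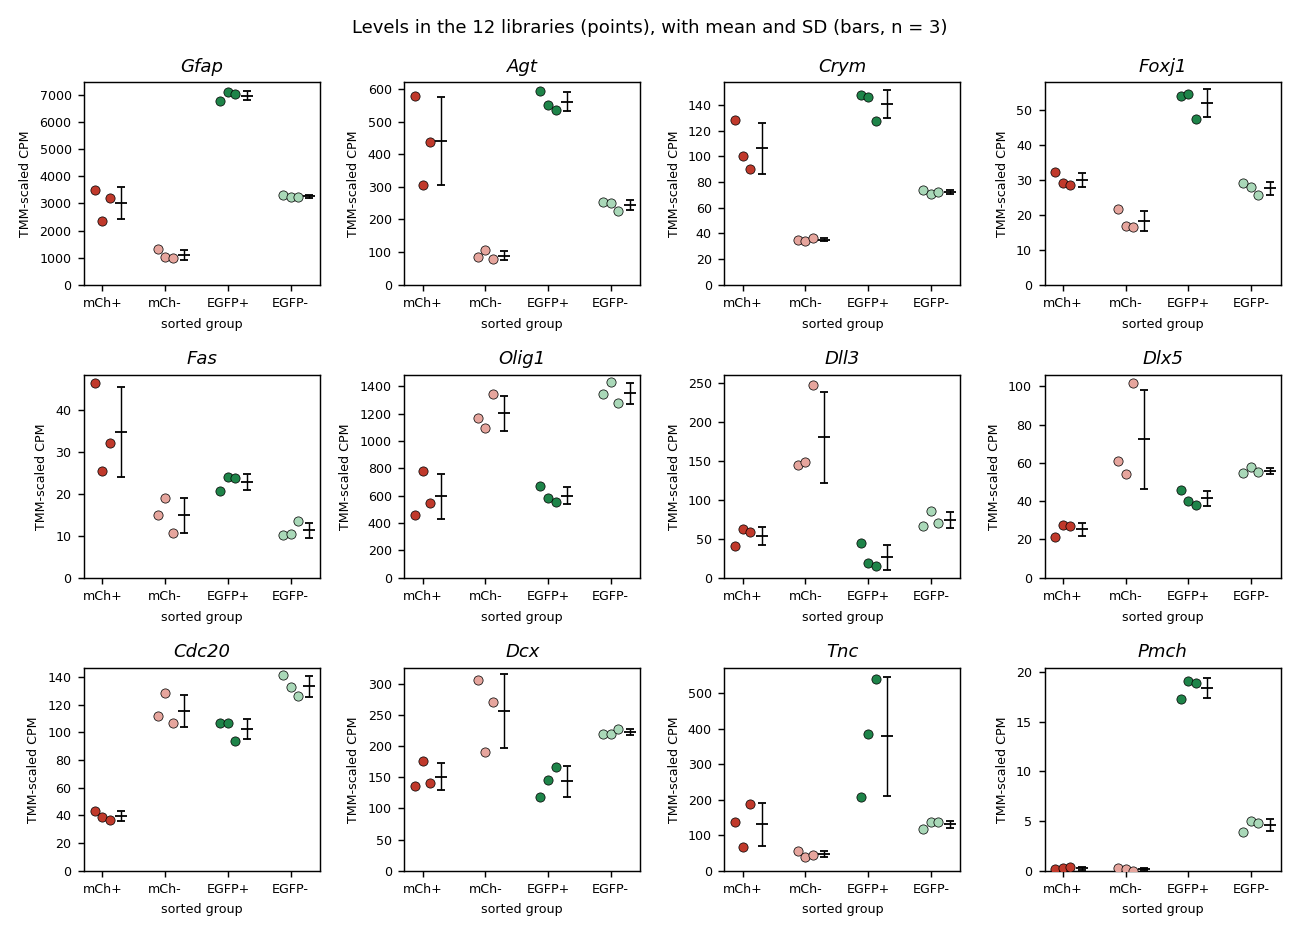
Each panel shows 1 gene, with 1 point per library on a linear axis in CPM and bars for the mean ± SD of the 3 libraries in each group. Gfap, Agt, Crym, Foxj1, Fas and Tnc were higher and Olig1, Dll3, Dlx5, Cdc20 and Dcx were lower in the positive cells of each sort without overlap, and Pmch differed by more than the spread in the EGFP sort.

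Oligodendrocyte precursor genes went the other way. Of 12 tested, 9 were lower and none was higher, where 4.28% of all genes tested were lower. The median was -1.04, and 4 had libraries apart in each sort, against 3.35% of all genes downward. Olig1, a lineage factor of oligodendrocytes, was at 462, 778 and 546 CPM in the mCherry-positive libraries, 1167, 1098 and 1347 CPM in the mCherry-negative, 672, 580.4 and 553 CPM in the EGFP-positive and 1343, 1432 and 1276 CPM in the EGFP-negative. No positive library reached a negative one of its sort, and the shared log2 fold change was -1.09 ± 0.13 (SE, adjusted p = 0.000464). Its neighbour on chromosome 16, Olig2, had -1.15 ± 0.20 (adjusted p = 0.00379), and the matrix gene Matn4 had -1.01 ± 0.17 (adjusted p = 0.00295). Lhfpl3 fell more in the EGFP sort (-1.86) than in the mCherry sort (-0.47), a difference of 1.36 ± 0.28, adjusted p = 0.031. The count of 9 lay between 7 and 11 over the alternatives. The median was -0.49 in the mCherry sort and -1.43 in the EGFP sort.

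Of 20 genes of differentiating oligodendrocytes 4 were lower, 2 were higher and 14 were not called, where 4.28% of all genes were lower and 7.50% higher. Sox10, the factor required for the lineage, had a shared log2 fold change of -1.46 ± 0.27 (adjusted p = 0.00478). The 2 sorts differed here, with a list median of 0.20 in the mCherry sort and -1.87 in the EGFP sort and 11 of 20 members called in the difference between sorts, where 1.44% of all 18063 genes tested were called. Gpr17, a receptor of committed precursors, stood at 457, 499 and 386 CPM in the mCherry-positive libraries, 640.1, 391 and 503 CPM in the mCherry-negative, 125, 197 and 245 CPM in the EGFP-positive and 864, 976 and 870.5 CPM in the EGFP-negative. The mCherry libraries overlapped and the EGFP libraries did not, and the effects differed by 2.06 ± 0.32, adjusted p = 0.0109. The list's count of 4 moved with many single libraries, from 1 without any 1 of EGFP-positive replicates 2 and 3 or EGFP-negative replicates 1, 2 and 3 to 10 without mCherry-negative replicate 2, and was 2 without mCherry-positive replicate 1, mCherry-negative replicate 3 or EGFP-positive replicate 1. It was 7 without mCherry-positive replicates 2 and 3 and 13 with 4 group means in place of a single effect. The 2 higher calls were 0 without mCherry-positive replicate 1.

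Of 13 proneural factors 6 were lower, none was higher and 7 were not called, where 4.28% of all genes tested were lower. The median was -0.74, and 5 had libraries apart in each sort, against 3.35% of all genes downward. In the mCherry sort alone 5 were called lower (background 0.656%), and in the EGFP sort alone 2 were called lower (background 7.07%) and 1 higher (background 8.99%). Beside Dll3, the Notch ligand Dll1 stood at 47.2, 50.01 and 58.0 CPM in the mCherry-positive libraries, 103, 92.2 and 95.9 CPM in the mCherry-negative, 62.7, 75.7 and 85.9 CPM in the EGFP-positive and 99.2, 106 and 98.9 CPM in the EGFP-negative and did not overlap in either sort (-0.67 ± 0.12, adjusted p = 0.00418). Igfbpl1, which is expressed in immature neurons, had a shared log2 fold change of -1.36 ± 0.21 (adjusted p = 0.00152). Sox11, a factor of newborn neurons, had -0.74 ± 0.17 (adjusted p = 0.0122), with -1.21 in the mCherry sort and -0.29 in the EGFP sort. Its effects differed by -0.95 ± 0.22, adjusted p = 0.0457, and its shared call was lost without mCherry-positive replicates 2 and 3 (adjusted p = 0.0531). The count of 6 fell to 3 without those 2 libraries.

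Of 10 GABAergic genes 5 were lower and none higher, with a median of -0.83, where 4.28% of all genes were lower. Dlx5 was at 21.2, 27.7 and 26.8 CPM in the mCherry-positive libraries, 61.1, 54.1 and 102 CPM in the mCherry-negative, 46.0, 40.2 and 38.1 CPM in the EGFP-positive and 54.5, 57.7 and 55.4 CPM in the EGFP-negative. Each sort was free of overlap, and the shared log2 fold change was -0.97 ± 0.21 (adjusted p = 0.00974). Its relatives Dlx1, Dlx2 and Dlx6 had -0.86 ± 0.20, -1.10 ± 0.27 and -0.96 ± 0.26 (adjusted p = 0.0146, 0.018 and 0.0279). Dlx2 fell by more in the mCherry sort (-1.92) than in the EGFP sort (-0.30), a difference of -1.65 ± 0.30, adjusted p = 0.0202. The 5 calls were 2 without mCherry-positive replicates 2 and 3, where Dlx1, Dlx2, Dlx5 and Dlx6 had adjusted p of 0.0686, 0.114, 0.056 and 0.0966. The calls were 3 without any 1 of mCherry-positive replicates 1, 2 and 3, mCherry-negative replicate 3, or EGFP-positive replicates 2 and 3.

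Pan-neuronal genes were mostly not called, with 3 of 22 lower (4.28% of all genes were), none higher and a median of -0.25. Dcx, a microtubule protein of migrating neuroblasts, was at 136, 175 and 141 CPM in the mCherry-positive libraries, 307, 191 and 271 CPM in the mCherry-negative, 118, 145 and 167 CPM in the EGFP-positive and 220.2, 220.2 and 228 CPM in the EGFP-negative. The highest positive library of each sort lay below the lowest negative one, and the shared log2 fold change was -0.70 ± 0.13 (adjusted p = 0.00471). Elavl3, a neuronal RNA-binding protein, had -0.86 ± 0.22 (adjusted p = 0.0223, up to 0.0569 when 1 library was left out), and Tubb3, neuronal beta-tubulin, had -0.74 ± 0.23 (adjusted p = 0.0486, up to 0.1). Both lost their calls without single libraries, 4 and 9 of the 12 in turn. The median differed in sign between the mCherry sort (0.095) and the EGFP sort (-0.62), and 15 of the 22 were called lower in the EGFP sort alone (background 7.07%). Without mCherry-positive replicates 2 and 3 the count was 10 lower genes and the median -0.63.

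Many cell division genes were lower in the mCherry-positive cells, and few were called in the EGFP sort. Of 35 mitosis genes 17 were lower, none was higher and 18 were not called in the shared effect, with a median of -0.73. Of 30 DNA replication genes 15 were lower, none was higher and 15 were not called, with a median of -0.67 (4.28% of all genes were lower). The mitosis median was -1.35 in the mCherry sort and -0.14 in the EGFP sort. In the difference between sorts 18 of the 35 members were called, against 1.44% of all genes tested. The replication median was -1.11 and -0.13, with 9 of 30 called in the difference, against the same 1.44%. In the mCherry sort alone 22 mitosis and 17 replication genes were called lower (background 0.656%). In the EGFP sort alone 1 of each was, a share below the 7.07% of all genes, and none was called higher. Cdc20, the activator of the anaphase-promoting complex, stood at 43.2, 38.9 and 36.3 CPM in the mCherry-positive libraries, 111, 128 and 106 CPM in the mCherry-negative, 106, 106 and 93.9 CPM in the EGFP-positive and 141, 132 and 126 CPM in the EGFP-negative. Positive libraries lay below negative ones in each sort, with a shared log2 fold change of -0.96 ± 0.18 (adjusted p = 0.00542). The fall was -1.54 in the mCherry sort against -0.40 in the EGFP sort, a difference of -1.17 ± 0.19, adjusted p = 0.0137.

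Cenpa, the centromeric histone, had -0.91 ± 0.18 (adjusted p = 0.00662), and Ccnb2, a mitotic cyclin, had -0.95 ± 0.21 (adjusted p = 0.0115). Ube2c, the ubiquitin-conjugating partner of the complex that Cdc20 activates, had -0.98 ± 0.21 (adjusted p = 0.0103). Among replication genes, Cdt1, which licenses origins, was at 11.0 ± 2.69 CPM in the mCherry-positive libraries against 26.8 ± 1.28 CPM in the mCherry-negative, and 22.8 ± 0.409 CPM in the EGFP-positive against 32.5 ± 2.57 CPM in the EGFP-negative (SD, n = 3 each), without overlap, and had -0.90 ± 0.17 (adjusted p = 0.00513). Exo1, a repair exonuclease, had -1.10 ± 0.24 (adjusted p = 0.0109), Rfc3, a clamp loader subunit, had -0.78 ± 0.17 (adjusted p = 0.0108) and Lig1, the replicative DNA ligase, had -0.65 ± 0.15 (adjusted p = 0.012). Without mCherry-positive replicates 2 and 3, 4 mitosis and 3 replication genes were called lower, and Ube2c (adjusted p = 0.0558), Rfc3 (adjusted p = 0.0504) and Lig1 (adjusted p = 0.0542) lost their calls. Without mCherry-positive replicate 1, 2 or 3 alone the counts were 8, 10 and 10 for mitosis and 7, 8 and 8 for replication. With 4 group means in place of a single effect they were 29 and 22.

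Many mitotic genes carry, close to their start site, a CHR element and CCAAT boxes, where the DREAM and MuvB complexes and NF-Y bind. RefSeq promoters (GRCm38.p6) were matched for 30 of the 35 mitosis genes, and the 250 bases before each start were searched on both strands, each motif by itself so that matches of different motifs may overlap. TTTGAA or TTCGAA, the CHR letters, occurred in 9 of 30 (30%), and in 5 of the 15 that were called lower, against 12.1% of the 12242 promoters of tested genes. CCAAT occurred in 23 of 30 (76.7%), and in 13 of the 15, against 35.8%. A match describes the sequence and is not evidence of binding. The promoters of Cdc20 (chr4:118437344-118437593, minus strand) and Ube2c (chr2:164769679-164769928, plus strand), 2 of the 5 called genes with a CHR match, are printed 5′ to 3′ in the gene's direction, with the CHR letters of either strand in capitals.

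Cdc20: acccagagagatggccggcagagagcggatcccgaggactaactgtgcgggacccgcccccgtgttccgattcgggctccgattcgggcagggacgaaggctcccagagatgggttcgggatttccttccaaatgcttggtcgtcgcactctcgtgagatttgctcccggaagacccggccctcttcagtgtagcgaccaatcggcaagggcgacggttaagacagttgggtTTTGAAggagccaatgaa
Ube2c: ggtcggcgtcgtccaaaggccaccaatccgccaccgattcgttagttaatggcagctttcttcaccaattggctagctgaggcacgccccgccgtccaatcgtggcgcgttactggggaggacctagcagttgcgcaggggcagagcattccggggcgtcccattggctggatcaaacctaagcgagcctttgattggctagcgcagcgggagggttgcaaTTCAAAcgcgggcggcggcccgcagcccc

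In Cdc20 the match begins 18 bases before the start site and in Ube2c 29 bases before it.

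Targets of p53, the stress-responsive transcription factor, were partly higher. Of 20 tested, 7 were higher and none lower, where 7.50% of all genes tested were higher. The median was 0.37 (0.29 in the mCherry sort and 0.41 in the EGFP sort). Of the 20, 6 had libraries apart upward in each sort, against 5.27% of all genes. Fas, a death receptor, stood at 46.6, 25.6 and 32.3 CPM in the mCherry-positive libraries, 15.1, 18.98 and 10.6 CPM in the mCherry-negative, 20.7, 24.2 and 23.7 CPM in the EGFP-positive and 10.2, 10.5 and 13.5 CPM in the EGFP-negative, with no overlap in either sort (1.12 ± 0.18, adjusted p = 0.00219). Cdkn1a (p21, an inhibitor of cyclin-dependent kinases) was at 166, 164 and 163 CPM in the mCherry-positive libraries, 108, 144 and 117 CPM in the mCherry-negative, 151, 125 and 105 CPM in the EGFP-positive and 81.7, 74.9 and 75.2 CPM in the EGFP-negative and had 0.57 ± 0.12 (adjusted p = 0.00778). Perp, a membrane protein of p53-dependent death, had 1.31 ± 0.25 (adjusted p = 0.00584) and Phlda3, an Akt inhibitor, had 0.57 ± 0.11 (adjusted p = 0.0055). The count lay between 6 and 9 over the alternatives.

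Clock genes were higher in part, with 7 of 19 called (7.50% of all genes were higher), none lower and a median of 0.49. Nr1d1, the repressor REV-ERB alpha of the circadian loop, stood at 35.4, 40.8 and 51.7 CPM in the mCherry-positive libraries, 26.1, 23.2 and 24.5 CPM in the mCherry-negative, 52.0, 51.7 and 58.2 CPM in the EGFP-positive and 35.2, 31.2 and 31.8 CPM in the EGFP-negative, without overlap (0.76 ± 0.12, adjusted p = 0.00168). Per3, a period gene, had 0.64 ± 0.13 (adjusted p = 0.00626), and Dbp, a clock output factor, had 0.59 ± 0.14 (adjusted p = 0.0149, 0.0572 without mCherry-positive replicates 2 and 3). The 7 calls were 3 without mCherry-positive replicate 1, EGFP-negative replicate 1 or EGFP-negative replicate 2, and without mCherry-positive replicates 2 and 3 together. They were 4 without mCherry-positive replicate 3, mCherry-negative replicate 3, EGFP-positive replicate 2 or EGFP-positive replicate 3. The E-box letters CACGTG occurred in 5 of 17 matched promoters of the list, in 1 of the 6 called higher, and in 8.1% of all.

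Interferon and antigen presentation genes were called in small number, 5 of 28 higher and none lower, against 7.50% and 4.28% of all genes. The median was 0.69, and 20 of the 28 were higher in the EGFP sort alone (background 8.99%). Ifit3, an interferon-induced antiviral protein, was at 87.6, 41.2 and 27.6 CPM in the mCherry-positive libraries, 33.3, 30.1 and 7.22 CPM in the mCherry-negative, 64.3, 63.9 and 68.3 CPM in the EGFP-positive and 23.8, 25.1 and 24.1 CPM in the EGFP-negative. The EGFP libraries were apart and the mCherry libraries overlapped (1.29 ± 0.32, adjusted p = 0.0183). Gbp2, an interferon-induced GTPase, was at 62.4, 29.0 and 27.9 CPM in the mCherry-positive libraries, 23.8, 15.5 and 2.36 CPM in the mCherry-negative, 44.8, 61.3 and 53.7 CPM in the EGFP-positive and 21.3, 19.7 and 15.8 CPM in the EGFP-negative and was 2.83-fold higher (adjusted p = 0.0187), Ifi44 had 1.39 ± 0.32 (adjusted p = 0.0142) and Ifit2 had 0.73 ± 0.20 (adjusted p = 0.0327). The summed level of the list was 2479, 1174 and 870.3 CPM in the mCherry-positive libraries and 1379, 1076 and 654.3 CPM in the mCherry-negative, which overlapped. It was 1804 to 2007 CPM in the EGFP-positive libraries and 1049 to 1100 CPM in the EGFP-negative. Microglial transcripts summed to 2083 CPM in mCherry-positive replicate 1, and their part in this result was not tested. The count of 5 ranged from 1 without mCherry-positive replicate 1 to 11 without mCherry-negative replicate 1, 12 without mCherry-positive replicate 3 and 17 without mCherry-positive replicates 2 and 3. It was 3 without any 1 of mCherry-negative replicate 3, EGFP-positive replicates 2 and 3, and EGFP-negative replicates 1, 2 and 3. Ifit3 (adjusted p = 0.0573) and Gbp2 (adjusted p = 0.0517) lost their calls without mCherry-positive replicate 1. Ifit2 lost its call without any 1 of 7 libraries, mCherry-positive replicate 1, mCherry-negative replicate 3, EGFP-positive replicates 2 and 3 and the 3 EGFP-negative replicates (adjusted p up to 0.0861).

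The interferon-stimulated response element, a promoter motif of many interferon-induced genes, was searched as 2 copies of GAAA with any 2 bases between them. It occurred on either strand within 250 bases before the start in 10 of 23 matched promoters of the list (43.5%), in 2 of the 5 called genes with a promoter, and in 2.56% of the 12242 promoters. Those 2 are Ifit3 (chr19:34583279-34583528, plus strand) and Gbp2 (chr3:142620413-142620662, plus strand), printed in the gene's direction with matches of either strand in capitals.

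Ifit3: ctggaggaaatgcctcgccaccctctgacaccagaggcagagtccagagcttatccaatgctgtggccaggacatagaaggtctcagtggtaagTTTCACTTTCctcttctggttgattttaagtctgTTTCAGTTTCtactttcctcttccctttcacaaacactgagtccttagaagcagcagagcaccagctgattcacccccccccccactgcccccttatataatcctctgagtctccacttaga
Gbp2: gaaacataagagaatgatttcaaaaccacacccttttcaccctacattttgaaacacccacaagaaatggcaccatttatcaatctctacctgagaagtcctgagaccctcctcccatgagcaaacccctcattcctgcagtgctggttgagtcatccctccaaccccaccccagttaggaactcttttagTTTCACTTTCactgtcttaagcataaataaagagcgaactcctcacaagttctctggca

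Ifit3 holds 2 matches, 156 and 122 bases before the start, and Gbp2 holds 1, 59 bases before it. The X-box half-site GTTGCC, which RFX factors of ciliated cells recognise, occurred in 2 of 11 matched motile cilia promoters, in 1 of the 5 called higher, and in 10.8% of all.

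**Figure D4:**
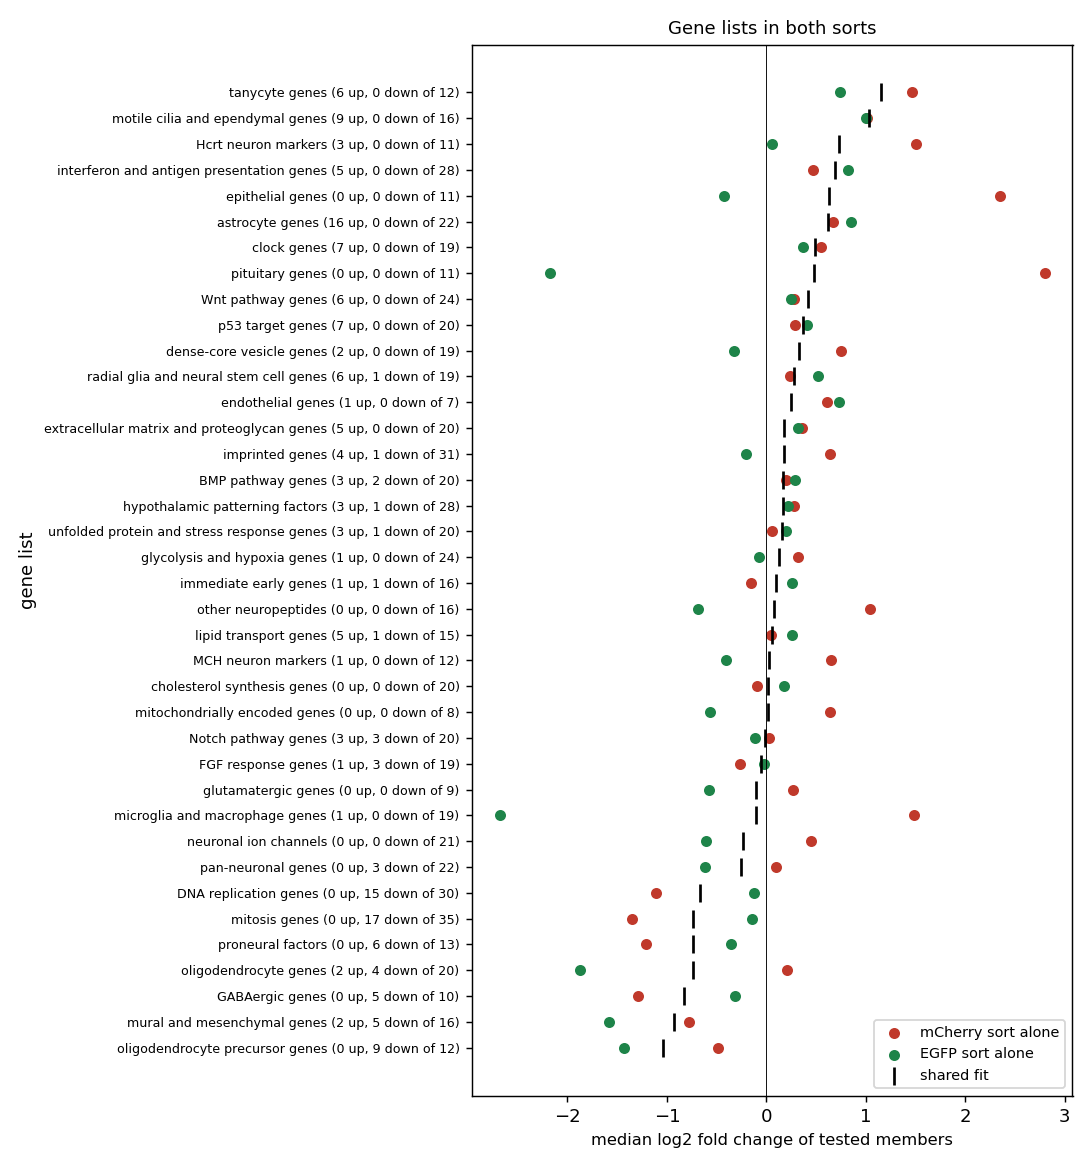
Each row is 1 of 38 gene lists, and the points give the median log2 fold change of its tested members in the shared effect, in the mCherry sort alone and in the EGFP sort alone. Tanycyte, motile cilia and astrocyte genes lie to the right in both sorts and oligodendrocyte precursor and proneural genes to the left, while microglia, pituitary and oligodendrocyte genes lie on opposite sides.

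Markers of the cells the reporters were meant to catch were mostly not called. Of 11 tested markers of Hcrt neurons 3 were higher and none was lower, where 7.50% of all genes tested were higher. Pdyn, the dynorphin precursor that Hcrt neurons co-release, was at 17.6, 12.9 and 18.8 CPM in the mCherry-positive libraries, 4.18, 7.55 and 3.86 CPM in the mCherry-negative, 13.4, 15.7 and 13.8 CPM in the EGFP-positive and 4.77, 4.11 and 7.04 CPM in the EGFP-negative. It did not overlap in either sort and had 1.55 ± 0.21 (adjusted p = 0.00107). Plagl1, an imprinted zinc finger factor, had 1.24 ± 0.21 (adjusted p = 0.00315), and Rfx4, also a factor of radial glia, had 0.73 ± 0.21 (adjusted p = 0.0326, lost without any 1 of 7 libraries, up to 0.0824). Of 12 markers of MCH neurons Pmch alone was called. Of 16 other neuropeptides, 9 glutamatergic genes and 21 neuronal ion channels none was called in the shared effect. Without mCherry-positive replicates 2 and 3 the medians of these lists moved from 0.08, -0.10 and -0.23 to -0.73, -0.54 and -0.50 in turn. By edgeR's test at this depth, 2 neuropeptides, 4 glutamatergic genes and 7 channels were called lower in the EGFP sort alone, where 7.07% of all genes were lower, a share that the 2 of 16 neuropeptides lie near. Dense-core vesicle genes had 2 of 19 higher, near the 7.50% of all genes that were. Their median was 0.75 in the mCherry sort and -0.32 in the EGFP sort, where 5 were called lower and 2 higher (background 7.07% and 8.99%). The shared median of 0.33 was -0.32 without mCherry-positive replicates 2 and 3. Among the higher ones, Cpe, the carboxypeptidase that trims peptide hormones, stood at 5544 ± 1847 CPM in the mCherry-positive libraries against 3303 ± 1047 CPM in the mCherry-negative. In the EGFP sort it stood at 7001 ± 231 CPM in the positive against 3742 ± 303 CPM in the negative libraries (SD, n = 3 each). Its shared log2 fold change was 0.83 ± 0.16 (adjusted p = 0.00627).

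Few genes of the signalling lists were called, where 7.50% of all genes were higher and 4.28% lower. The counts for Notch, BMP and FGF were 1 to 3 genes per direction, and whether they exceed those shares was not tested. In the Notch list 3 of 20 were higher and 3 lower. The ligands Dll1 and Dll3 and the glycosyltransferase Mfng (-0.99 ± 0.24, adjusted p = 0.018) were lower, and among the higher ones was Hey1, a target of the pathway (0.46 ± 0.10, adjusted p = 0.0105). Mfng lost its call without mCherry-positive replicate 1 (adjusted p = 0.0506) and without mCherry-positive replicates 2 and 3 (adjusted p = 0.107). In the Wnt list 6 of 24 were higher and none lower, among them the secreted agonist Rspo3 (1.60 ± 0.40, adjusted p = 0.0204) and the antagonist Frzb, and the count was 2 without mCherry-positive replicate 1, EGFP-negative replicate 1 or EGFP-negative replicate 3 and 3 without EGFP-positive replicate 2 or EGFP-negative replicate 2. In the BMP list 3 of 20 were higher and 2 lower. The ligand Bmp7 fell (-0.70 ± 0.16, adjusted p = 0.0142) while the receptor Bmpr1b rose (1.01 ± 0.26, adjusted p = 0.0211, up to 0.0579 without EGFP-negative replicate 1). In the FGF list 3 of 19 were lower and 1 higher, with the feedback inhibitor Spry1 at -0.56 ± 0.13 (adjusted p = 0.0163), the effector Etv1 at -0.70 ± 0.14 (adjusted p = 0.00652) and the receptor Fgfr1 at 0.45 ± 0.11 (adjusted p = 0.018). Spry1 lost its call without mCherry-positive replicates 2 and 3 (adjusted p = 0.0545), and Fgfr1 without EGFP-negative replicate 3 (adjusted p = 0.0527) and EGFP-negative replicate 2 (adjusted p = 0.05).

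Among 28 hypothalamic patterning factors 3 were higher and 1 lower, not far from the 7.50% and 4.28% of all genes. Fezf2, a factor of forebrain progenitors, was at 13.4 ± 1.82 CPM in the mCherry-positive libraries against 6.13 ± 1.30 CPM in the mCherry-negative, and 20.3 ± 1.33 CPM in the EGFP-positive against 9.90 ± 0.373 CPM in the EGFP-negative (SD, n = 3 each), apart in each sort (1.08 ± 0.15, adjusted p = 0.00111). Nr2f2 (COUP-TFII) had 0.98 ± 0.23 (adjusted p = 0.0156, 0.0526 without mCherry-positive replicates 2 and 3) and Meis2 had -0.66 ± 0.16 (adjusted p = 0.018, 0.0985 without them). Of 31 imprinted genes 4 were higher and 1 lower, also not far from those shares. The lower one was Cdkn1c, the growth inhibitor p57 (-0.95 ± 0.19, adjusted p = 0.00718), and Impact was among the 4 higher ones (0.68 ± 0.15, adjusted p = 0.00916). The 4 were 2 without EGFP-negative replicate 1 or EGFP-negative replicate 2 and 7 with 4 group means. The small counts of higher genes moved too, over the alternatives run, from 2 to 5 for Hcrt neuron markers, 1 to 3 for Notch, 0 to 4 for BMP, 0 to 3 for FGF, 1 to 6 for patterning, 1 to 4 for dense-core vesicle and 2 to 4 for stress response genes, and the BMP count was 0 without mCherry-positive replicate 1.

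Lipid transport genes had 5 of 15 higher and 1 lower, where 7.50% of all genes were higher and 4.28% lower. Abca1, the cholesterol exporter that loads apolipoproteins, stood at 272, 119 and 229 CPM in the mCherry-positive libraries, 86.6, 44.5 and 56.8 CPM in the mCherry-negative, 125, 164 and 206 CPM in the EGFP-positive and 81.6, 80.1 and 77.6 CPM in the EGFP-negative, apart in each sort (1.39 ± 0.22, adjusted p = 0.00201), and the fatty acid receptor Cd36 had 1.66 ± 0.28 (adjusted p = 0.00267). None of 20 cholesterol synthesis genes was called in the shared effect, and 3 were called higher in the EGFP sort alone, near the 8.99% of all genes that were. The cholesterol synthesis median moved from 0.02 to 0.15 without mCherry-positive replicates 2 and 3. Extracellular matrix genes had 5 of 20 higher and none lower (3 without EGFP-positive replicate 3), with Sparc at 0.83 ± 0.19 (adjusted p = 0.0135), with log2 fold changes of 1.43 in the mCherry sort and 0.22 in the EGFP sort. Against the same 7.50% and 4.28% of all genes, stress response genes had 3 of 20 higher and 1 lower, among them Atf3, a stress-induced factor also counted with the immediate early genes (1.01 ± 0.19, adjusted p = 0.00542), and the cystine transporter Slc7a11 (1.25 ± 0.29, adjusted p = 0.0125). Immediate early genes had 1 of 16 higher and 1 lower, and glycolysis and hypoxia genes 1 of 24 higher. Of 8 mitochondrially encoded genes none was called in the shared effect, 4 were called in the difference between sorts and 7 were lower in the EGFP sort alone (background 7.07%).

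Markers of microglia, pituitary, epithelium and endothelium gave few shared calls, and mural and mesenchymal markers more. Of 19 microglia and macrophage genes 1 was higher, P2ry12, a purine receptor of resting microglia (1.42 ± 0.36, adjusted p = 0.0221, 0.0756 without mCherry-positive replicate 1), while 13 were lower in the EGFP sort alone (background 7.07%) and the list median was 1.49 in the mCherry sort and -2.68 in the EGFP sort. Of 11 pituitary and 11 epithelial genes none was called in the shared effect. Without mCherry-positive replicates 2 and 3 the medians of these lists moved from 0.48 and 0.63 to -2.59 and -0.87. Of 7 endothelial genes 1 was higher, Kdr, the VEGF receptor (2.68 ± 0.51, adjusted p = 0.00537), while the defining endothelial genes Cldn5 and Cdh5, looked up after the values were seen, were at 0 to 0.159 and 0 to 0.494 CPM. Of 16 mural and mesenchymal genes 5 were lower and 2 higher, against 4.28% and 7.50% of all genes. The 5 lower ones, named after their values were seen, were Postn, Dcn, Col1a2, Pdgfra and Cspg4, of which Pdgfra and Cspg4 are also in the oligodendrocyte precursor list. Postn, a matrix protein of fibroblasts, fell (-2.13 ± 0.47, adjusted p = 0.0109) and Pdgfrb, the pericyte receptor, rose (0.81 ± 0.18, adjusted p = 0.0109). The 5 lower calls were 2 without EGFP-positive replicate 2 or 3, and 3 without mCherry-negative replicate 1, EGFP-positive replicate 1 or any 1 EGFP-negative replicate, and at most 8 over the alternatives run.

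**Figure D5:**
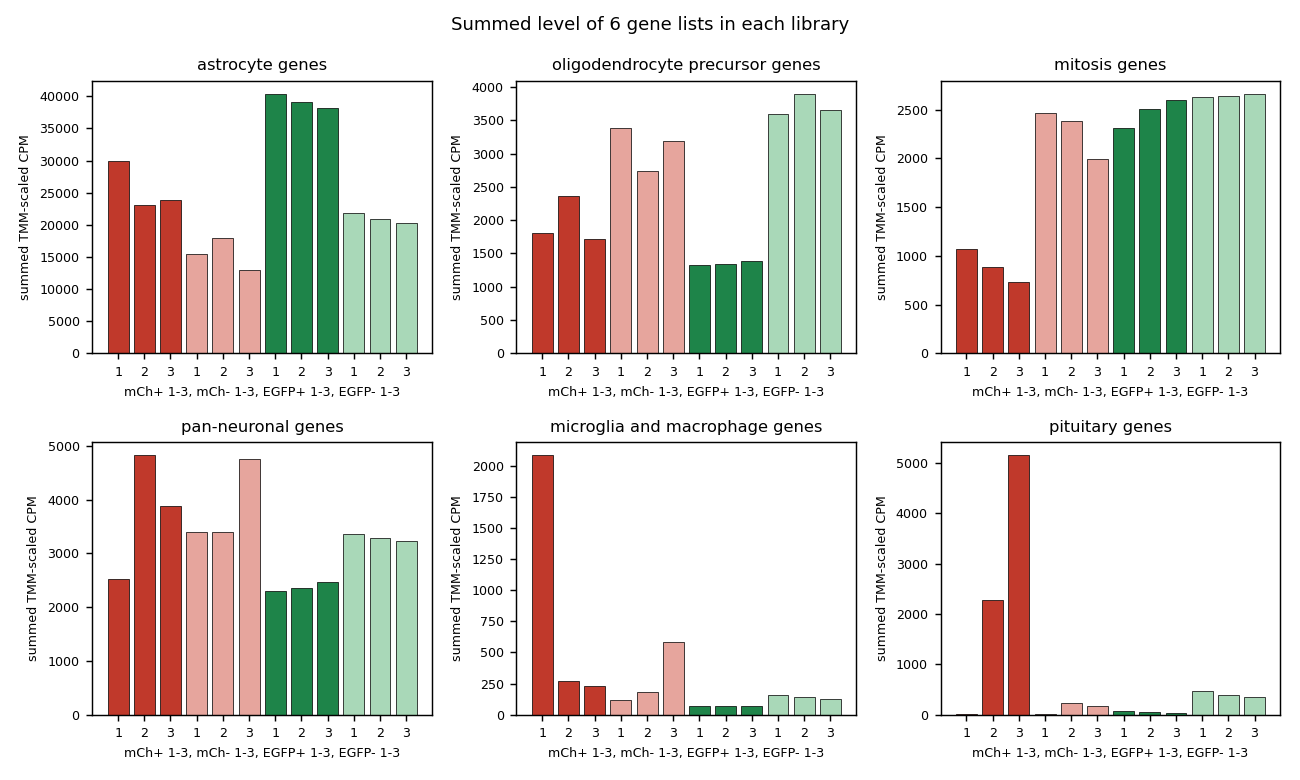
Bars give the summed CPM of the members of a gene list in each of the 12 libraries, with axes that start at 0 and differ between panels. The astrocyte sum is higher and the oligodendrocyte precursor sum lower in the positive libraries of each sort, while the microglia sum peaks in mCherry-positive replicate 1 (2083 CPM) and the pituitary sum in mCherry-positive replicates 2 and 3 (2279 and 5147 CPM).

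A stricter view of what the sorts share is the set of genes called in each sort fitted alone. Of 15995 genes tested in both fits 62 were called higher in each (0.388%) and 12 lower in each (0.0750%), and 3 were called in opposite directions. The 62 include Gfap, Agt, Crym and Cckbr. The 12 lower ones, named here after their values were seen, were Cdc20, Cdt1, Dll3, Dlx1, Dlx5, Igfbpl1, Nxph1, Pknox2, Ppp1r14b, Sapcd2, Sp8 and Trp53i11. They hold 2 cell division genes, 2 Dlx factors and the Notch ligand Dll3. The total of 74 depended on single libraries. It fell to 0 when mCherry-positive replicate 3 or either of the first 2 mCherry-negative replicates was left out, to 11 when mCherry-positive replicate 2 was, and to 12 when mCherry-negative replicate 3 was. The total was 38 without mCherry-positive replicate 1, 43 without EGFP-positive replicate 2, 44, 43 and 47 without EGFP-negative replicates 1, 2 and 3, and 36 without mCherry-positive replicates 2 and 3.

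The last comparison tested where the positive-minus-negative effect differed between the sorts. Of 18063 genes tested 261 (1.44%) were called, 160 (0.886%) with a more positive effect in the mCherry sort and 101 (0.559%) with a more positive effect in the EGFP sort. For 90 of them the effects were opposed and the libraries apart in each sort, 64 up in the mCherry sort and 26 up in the EGFP sort. Among the former, the 6 genes of largest difference with at least 5 CPM on average were Mpeg1, Csf1r, Lcp1, Mal2, Car10 and Slc17a6. Below that level the epithelial protease inhibitor Spint1, looked up after its values were seen, differed by more than any of them, with 128, 324 and 568 reads in the mCherry-positive libraries against 12, 43 and 21 in the mCherry-negative, and 0, 0 and 1 in the EGFP-positive against 87, 66 and 19 in the EGFP-negative. Csf1r, the receptor that microglia depend on, was at 144, 7.98 and 6.81 CPM in the mCherry-positive libraries, 2.99, 4.02 and 4.31 CPM in the mCherry-negative, 0.124, 0.0398 and 0.876 CPM in the EGFP-positive and 6.36, 5.93 and 3.85 CPM in the EGFP-negative, and Mpeg1, a macrophage perforin, had 1318, 67 and 187 reads in the mCherry-positive libraries against 29, 39 and 29 in the mCherry-negative, and 2, 0 and 0 reads in the EGFP-positive libraries against 52, 23 and 12 in the EGFP-negative. Mal2, a protein of epithelial transcytosis, was at 9.50, 22.7 and 11.1 CPM in the mCherry-positive libraries, 1.64, 3.32 and 2.45 CPM in the mCherry-negative, 0.621, 0.359 and 1.61 CPM in the EGFP-positive and 2.38, 4.34 and 3.79 CPM in the EGFP-negative. Slc17a6, the vesicular glutamate transporter of hypothalamic excitatory neurons, was at 6.91, 44.2 and 11.99 CPM in the mCherry-positive libraries, 1.09, 4.08 and 2.86 CPM in the mCherry-negative, 1.68, 2.31 and 2.14 CPM in the EGFP-positive and 4.29, 5.89 and 4.51 CPM in the EGFP-negative. In the mCherry sort the latter was highest in replicate 2, and its effects differed by 4.22 ± 0.84, adjusted p = 0.0294.

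By the same rule, the 6 genes of largest difference in the other direction, whose libraries lay above their negatives in the EGFP sort and below them in the mCherry sort, were Car3, Neil3, Tagln, Upp1, Rrm2 and Alpl. Rrm2, the ribonucleotide reductase subunit of S phase, was at 138, 114 and 70.6 CPM in the mCherry-positive libraries, 315, 374 and 274 CPM in the mCherry-negative, 324, 332 and 338 CPM in the EGFP-positive and 298, 316 and 301 CPM in the EGFP-negative. Its log2 fold change was -1.58 in the mCherry sort and 0.10 in the EGFP sort, where it was not called (adjusted p = 0.499), and the effects differed by -1.70 ± 0.28, adjusted p = 0.0139. Neil3, a DNA glycosylase of dividing cells, differed by -1.90 ± 0.34, adjusted p = 0.0202. Car3, a carbonic anhydrase, differed by -2.03 ± 0.30, adjusted p = 0.00881, and Tagln, an actin-binding protein of smooth muscle, by -1.85 ± 0.29, adjusted p = 0.0122. Single libraries moved the count of 261, which was 591 without mCherry-positive replicate 1, 172 and 163 without mCherry-positive replicates 2 and 3, and 72 when mCherry-negative replicate 2 was left out. The count was 151, 43 and 114 without EGFP-positive replicates 1, 2 and 3, 40, 35 and 27 without EGFP-negative replicates 1, 2 and 3, and 167 without mCherry-positive replicates 2 and 3 together. Across 15994 genes, which are not independent replicates, the effects of the 2 sorts had a Pearson r of 0.236 and a Spearman rho of 0.345.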

How the data were processed

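The deposited values are raw counts of reads per gene for each of the 12 libraries (SMART-Seq v4 cDNA, Nextera XT). Per the submitters' processing notes the authors used cutadapt 1.8, STAR 2.5.2b and HTSeq 0.6.1 with GRCm38. The annotation and the strand setting are not given in the sources used here, so reads of overlapping or antisense genes, and of near-identical gene copies, may be misassigned. Entries that name no gene held 31.4% to 38.2% of all reads and were left out, which left 16291110 to 32889829 reads per library. Of 48709 identifiers 48349 were matched to GENCODE M21 for symbols and positions.

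Counts were tested with edgeR 4.0.16 (R 4.3.3) by the quasi-likelihood test with TMM factors, after filterByExpr with the design (minimum count 10, minimum total 15), and p-values were adjusted by Benjamini-Hochberg over all genes tested, with a call at 0.05. The shared effect was fitted with sort and reporter state. The difference between sorts was fitted with 4 group means, and each sort was also fitted alone. Errors of fold changes are standard errors derived from the F statistic, and levels are CPM scaled with the TMM factors of the shared fit. Single values were compared by exact permutation within sorts. Replicates of a group differed by more than sampling noise, with a chi-square per degree of freedom of 6.2 to 88.5. Motifs were matched in RefSeq promoters of GRCm38.p6.

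The comparison, the 38 gene lists and the tests were chosen with earlier results of these data known. Genes were named by rule: Hcrt, Pmch, the 12 genes of largest change in each direction among called genes of at least 5 CPM with libraries apart in each sort, 6 opposed genes per direction, and up to 4 called members of each list, or 2 of highest level where none was called. A few items are not reported here. The tests were checked on simulated counts with the same spread for all genes and both sorts. The sorts differed in spread here, so that check does not cover this feature of the data. Alternatives were DESeq2 size factors, no filter, a stricter filter (50 reads in 3 libraries), DESeq2 1.42.0, limma-voom (limma 3.58.1), a replicate block, each library left out, 4 group means and, chosen after seeing the data, mCherry-positive replicates 2 and 3 left out together.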

Additional observations from a re-analysis of the deposited data

Results flagged for a closer look

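For 31 of the named genes the positive-minus-negative effect differed between the mCherry and the EGFP sort in edgeR's quasi-likelihood test of the difference itself (adjusted p under 0.05, 1.44% of all genes tested). The value after each gene is the mCherry effect minus the EGFP effect on the log2 scale. Microglial and macrophage genes had a more positive effect in the mCherry sort, Mpeg1 (9.33), Csf1r (7.61) and Lcp1 (4.72), and the EGFP-positive libraries held 0 to 25 reads of Mpeg1 or Csf1r each, so the sizes of those 2 depend on the prior count of the fit. The same direction held for the epithelial genes Epcam (4.99) and Mal2 (4.52), for Car10 (4.34), Slc17a6 (4.22) and Slc1a1 (2.01), for the oligodendrocyte lineage genes Gpr17 (2.06), Sox10 (1.60) and Lhfpl3 (1.36), for Plppr1 (1.22), for the secreted factors Bmp4 (2.12), Frzb (1.79) and Sparc (1.17), and for the mitochondrial genes mt-Co1 (1.02) and mt-Cytb (1.05). Cell division genes had a more negative effect in the mCherry sort, Rrm2 (-1.70), Neil3 (-1.90), Ube2c (-1.33), Ccnb2 (-1.22), Cdc20 (-1.17) and Cenpa (-1.09). So had the neurogenic genes Dlx2 (-1.65), Mfng (-1.39), Sox11 (-0.95) and Meis2 (-0.92), and Car3 (-2.03), Tagln (-1.85), Upp1 (-1.75) and Alpl (-1.43). The highest microglial sum and the 2 highest pituitary sums were in mCherry-positive libraries. The EGFP sort held such transcripts too, at 129.6 to 154.3 CPM (microglial) and 358.3 to 462.9 CPM (pituitary) in the EGFP-negative libraries. The EGFP-positive libraries held 69.63 to 71.84 and 42.42 to 70.35 CPM in turn. The part of microglial and pituitary transcripts in these differences was not tested.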

How the results depend on the processing

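All 2050 shared calls kept their direction in each of the 20 alternatives that tested them, and 58.7% to 100% of them stayed called. Of 118 named genes with a shared call 74 were called in every alternative, and of 31 named genes with a called difference between sorts 2 were called in all 19. Leaving out 1 library at a time gave 808 to 1362 higher genes, 397 to 1041 lower genes, 27 to 591 genes with different effects and 0 to 104 genes called alike in each sort alone. DESeq2 gave 1401 lower genes, 894 with different effects and 548 called alike in each sort alone. Fitting 4 group means gave 1156 lower genes. With no filter 675 genes had different effects and 270 were called alike in each sort alone, and the stricter filter gave 136 of the latter. Without mCherry-positive replicates 2 and 3, chosen after seeing the data, these counts were 167 and 36. The cause of these shifts was not tested. Libraries of the same replicate number were not treated as pairs. The labels do not say whether they are, and correlations among 3 libraries per group cannot settle it. Same-numbered libraries had correlated deviations of 0.138, -0.0138 and 0.0175 in the mCherry sort and 0.0968, 0.000706 and 0.0274 in the EGFP sort, and not every library correlated best with its own number. The replicate block gave 1193 higher and 599 lower genes, 293 with different effects and 143 called alike in each sort alone. Depth limited Hcrt, which had 0 to 14 reads per library.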

Other observations

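Several genes called higher in each sort alone lie outside the lists and were picked out after their values were seen, from those of smallest adjusted p. Serpina3n, a protease inhibitor of reactive astrocytes, had a shared log2 fold change of 1.41 ± 0.15 (SE, adjusted p = 0.000267 by edgeR's quasi-likelihood test), and Rdh5, a retinol dehydrogenase, had 1.22 ± 0.13 (adjusted p = 0.000267). Drc1 and Efcab1, both genes of the motile axoneme that the cilia list does not hold, had 1.29 ± 0.14 (adjusted p = 0.000267) and 1.58 ± 0.19 (adjusted p = 0.00051). Igsf1, an immunoglobulin protein of the pituitary and hypothalamus, had 1.79 ± 0.23 (adjusted p = 0.000747). Among the genes lower in each sort alone, Nxph1, a secreted neurexin ligand, had -0.90 ± 0.11 (adjusted p = 0.000629). Shared calls were spread over the chromosomes, with 5.86% to 9.12% of tested genes higher and 2.96% to 6.34% lower on each autosome and the X chromosome.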
